A study of Mus musculus with 2 samples.

Results

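The genes described here are the surface receptors by which cells of the myeloid lineage sense their surroundings, together with the 3 chains of complement C1q. They were matched by name in a table of read counts per gene, by a rule set with earlier results of these data known. The rule names Toll-like receptors, Fc gamma receptors and their gamma chain Fcer1g, C-type lectins, and the Lilr, Pilr, Siglec, Trem and Ms4a families. It also names Tyrobp, C1qa, C1qb, C1qc, Cd14, Cd68, Cd53, Emr1 and Ptprc. The rule matched 93 rows, and 46 of them had at least 20 counts summed over both libraries and are called measured, out of 14213 such genes in the table. Of the other 47 rows, 24 had 1 to 19 counts and 23 had no count in either library.

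The libraries are poly(A) RNA of C57BL/6 mouse embryonic stem cells, 1 per group. The library labelled Pc4-OE came from cells at passages 24 to 37 that carry a lentivirus for Pc4, the coactivator encoded by Sub1, with a Venus (yellow fluorescent protein) marker. The design text names 3 such lines, each from picked fluorescent colonies, and the labels do not say which of them the library holds. The library labelled control came from cells at passages 17 to 23. Both were kept on mouse embryonic fibroblasts in medium with leukaemia inhibitory factor, and the labels do not mention removal of these feeder cells before RNA extraction. Passage and group cannot be told apart, and with 1 library each no test between the conditions was possible.

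Myeloid cells are macrophages, monocytes, granulocytes and their relatives. Their receptors work in a few circuits: Fc gamma receptors bind antibody-coated particles, Toll-like receptors and C-type lectins bind microbial molecules, and Trem receptors bind lipids and lipoproteins. Many of them have no signalling tail of their own and pass the signal through the adaptors FCER1G or TYROBP, whose ITAM motifs recruit the kinase SYK. C1q, built from A, B and C chains, starts the classical complement pathway and is made mainly by tissue macrophages. Stem cells and fibroblasts are not known for most of these genes.

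The library labelled Pc4-OE held 10194783 counts and the library labelled control 10571463. Levels are read counts scaled to library size (CPM, with TMM factors), and each ratio is Pc4-OE over control with the exact (Clopper-Pearson) 95% interval of its 2 counts, called the counting interval because it covers counting error alone. The 2-fold rule asked for a ratio of 2 or more, higher or lower, with a counting interval that excluded 1. Sub1 itself had 2432 counts in the Pc4-OE-labelled library and 5522 in the control-labelled one, 2.26-fold lower, which goes against the label, so directions are given by label throughout. Genes of the labelled cell type were present in both libraries: the 14 core pluripotency genes summed to 4676 CPM in the Pc4-OE-labelled library and 6813 CPM in the control-labelled one. The 24 fibroblast markers summed to 20189 CPM in the Pc4-OE-labelled library and 7956 CPM in the control-labelled one. By gene, Pou5f1, which encodes OCT4, stood at 571.4 CPM in the Pc4-OE-labelled library and 1092 CPM in the control-labelled one, and the collagen gene Col1a1 at 1536 CPM in the Pc4-OE-labelled library and 732.5 CPM in the control-labelled one. By the 2-fold rule, 5 of the 14 pluripotency genes were lower, 0 higher and 9 neither. Over all 14213 genes measured, 4.02% were lower by this rule and 11.8% higher.

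Nearly all of the measured receptors were more abundant in the Pc4-OE-labelled library. Of the 46, 38 were at least 2-fold higher, 0 were at least 2-fold lower and 8 met neither side of the rule. Over all 14213 genes measured, 11.8% were higher by this rule and 4.02% lower. The median log2 ratio of the 46 was 2.09 (order-statistic interval across genes 1.64 to 2.55), against -0.01 over all genes. In bulk RNA, fewer cells of a type and less RNA per cell cannot be told apart. The sum over all 93 matching rows, which needs no count minimum, was 539.8 CPM (5587 counts) in the Pc4-OE-labelled library and 200.5 CPM (2088 counts) in the control-labelled one, a ratio of 2.69 (counting interval 2.56 to 2.83). Clec16a supplied 515 of the control counts, and without it the ratio was 3.31 (3.13 to 3.51).

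Counts are low for this group of genes, so the depth was set beside the calls. Among the 31 members with at least 50 counts, 27 were higher and 4 neither, while 10.7% of all 12839 genes of that depth were higher. Among the 15 members with 20 to 49 counts, 11 were higher and 4 neither, and 21.4% of all 1374 genes of that depth were higher. A low-count gene can pass the minimum through the library in which it is high, so the count of 38 describes these 46 genes and not all 93. The 47 rows below the minimum summed to 108 counts in the Pc4-OE-labelled library and 54 in the control-labelled one, a ratio of 2.01 (1.44 to 2.84). Just inside the minimum stood Clec10a with 15 counts (Pc4-OE) and 5 (control) and Tlr1 with 15 (Pc4-OE) and 6 (control). Just outside it stood Pilra with 14 (Pc4-OE) and 5 (control) and Ms4a6b with 12 (Pc4-OE) and 3 (control).

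**Figure D1:**
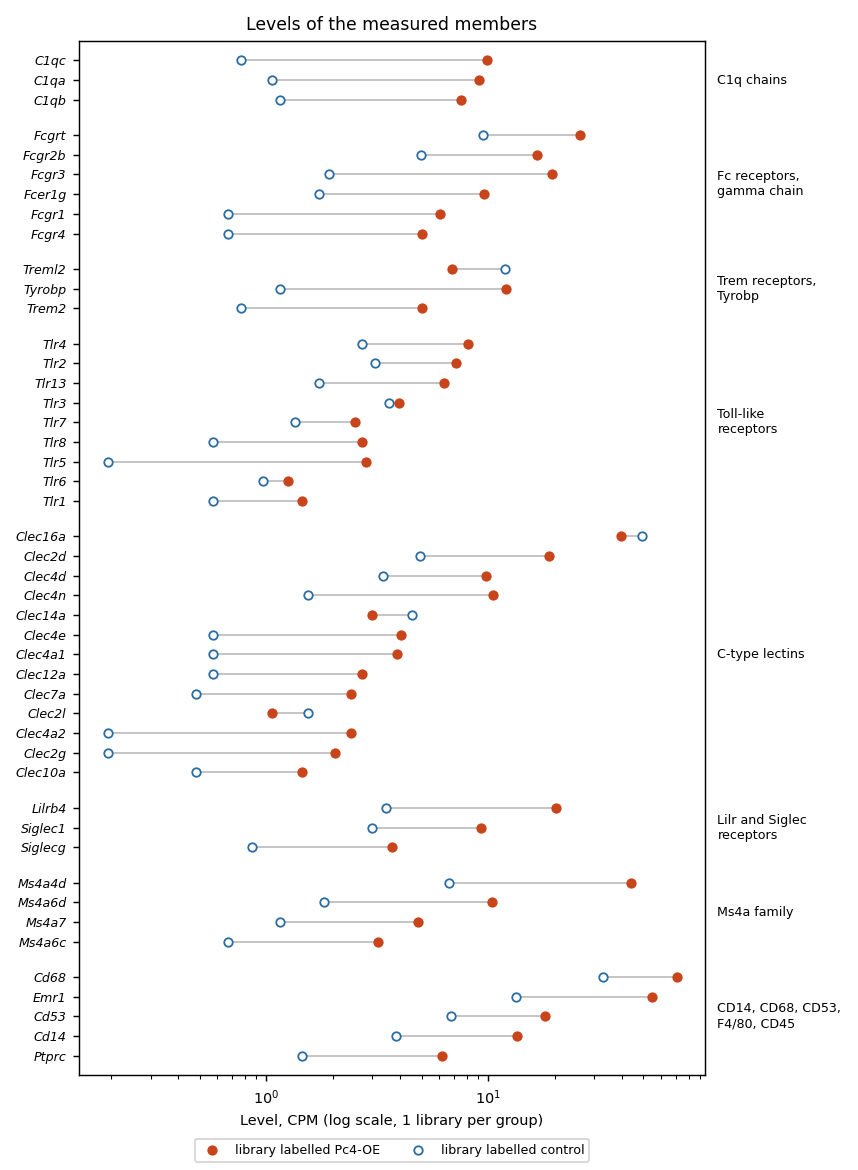
Level of each of the 46 measured members in CPM on a log scale, filled points for the library labelled Pc4-OE and open points for the library labelled control, 1 library per group, grouped by family. The open point lies right of the filled one for Treml2, Clec16a, Clec14a and Clec2l, and left of it for the other 42.

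Promoter windows are shown for 4 members: a C1q chain, an Fc receptor, a Trem receptor and the shared gamma chain. Each window is a RefSeq promoter sequence on GRCm38.p6, 250 bases before to 50 bases after the gene's start, written 5′ to 3′ on the gene's strand, and the 4 were picked after their letters had been read. Capitals mark GAGGAA or its reverse complement TTCCTC, the core letters bound by PU.1, the myeloid transcription factor encoded by Spi1, whose GGAA is shared with other ETS factors.
C1qb (chr4:136886151-136886450, minus strand): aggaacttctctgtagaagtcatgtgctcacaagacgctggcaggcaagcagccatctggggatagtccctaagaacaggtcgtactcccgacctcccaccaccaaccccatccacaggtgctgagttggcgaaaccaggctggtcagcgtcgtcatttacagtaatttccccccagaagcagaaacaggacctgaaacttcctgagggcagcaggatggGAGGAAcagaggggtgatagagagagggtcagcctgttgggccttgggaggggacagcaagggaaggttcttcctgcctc
Fcgr1 (chr3:96293920-96294219, minus strand): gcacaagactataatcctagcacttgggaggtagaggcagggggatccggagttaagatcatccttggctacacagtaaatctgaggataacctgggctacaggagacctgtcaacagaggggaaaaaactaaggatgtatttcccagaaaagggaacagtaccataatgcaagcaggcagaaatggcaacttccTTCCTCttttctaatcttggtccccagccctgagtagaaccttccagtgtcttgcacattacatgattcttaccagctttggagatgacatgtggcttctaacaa
Trem2 (chr17:48346151-48346450, plus strand): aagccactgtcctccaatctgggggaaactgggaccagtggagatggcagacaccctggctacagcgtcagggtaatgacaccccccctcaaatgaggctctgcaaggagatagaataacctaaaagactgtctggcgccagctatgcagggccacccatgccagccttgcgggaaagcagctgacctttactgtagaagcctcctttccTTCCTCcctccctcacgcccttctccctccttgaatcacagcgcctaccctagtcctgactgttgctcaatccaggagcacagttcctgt
Fcer1g (chr1:171234300-171234599, minus strand): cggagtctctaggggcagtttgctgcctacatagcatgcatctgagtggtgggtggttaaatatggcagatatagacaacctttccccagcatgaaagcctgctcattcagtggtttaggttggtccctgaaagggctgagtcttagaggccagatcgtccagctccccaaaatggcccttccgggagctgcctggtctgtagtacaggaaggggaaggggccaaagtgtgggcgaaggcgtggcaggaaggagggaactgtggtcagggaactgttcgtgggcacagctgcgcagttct

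The match in C1qb began 30 bases before the start on the gene's strand. Those in Fcgr1 and Trem2 began 55 and 40 bases before it and lay on the other strand, and the Fcer1g window held none. Of the 46 measured members, 34 had at least 1 window in the RefSeq table, with 41 windows in all, some of which overlap. GAGGAA on either strand was found in 24 of these 41 windows (58.5%) and in 28.3% of all 32851 windows of the same length. By gene, 18 of the 28 members that met the rule held it and 4 of the 6 that did not. A gene was counted when any of its windows held it. No such share by gene was computed over all genes, and the 28.3% is a share of windows. The AP-1 letters TGANTCA were in 14.6% of the members' windows and 7.81% of all windows, and the TATA letters TATAAA in 14.6% and 13.6%. These are letter matches in short windows and say nothing of binding, and a link between them and the ratios was not tested.

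The C1q chains had the highest family median, a log2 ratio of 3.10. C1qa had 94 counts in the Pc4-OE-labelled library and 11 in the control-labelled one, 8.60-fold higher (counting interval 4.59 to 17.8). C1qb had 78 counts in the Pc4-OE-labelled library and 12 in the control-labelled one, 6.54-fold higher (3.54 to 13.2). C1qc had 102 counts in the Pc4-OE-labelled library and 8 in the control-labelled one, 12.8-fold higher (6.27 to 30.5). The 3 intervals overlap one another. Per kilobase of the longest GENCODE transcript, the chains stood near each other in the Pc4-OE-labelled library, at 8.73 (C1qa), 6.93 (C1qb) and 8.19 (C1qc) CPM per kb, and in the control-labelled one at 1.02 (C1qa), 1.06 (C1qb) and 0.639 (C1qc) CPM per kb. The genes lie side by side on chromosome 4, within 136880126 to 136898844 (GRCm38). The measured genes beside them, Epha8 and Zbtb40, had log2 ratios of 0.15 and -0.39.

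All 6 Fc receptor genes were measured and all 6 were at least 2-fold higher. Fcgr3, a low-affinity activating receptor for antibody, had 201 counts in the Pc4-OE-labelled library and 20 in the control-labelled one, 10.1-fold higher (6.38 to 16.9). Fcgr1, the high-affinity receptor, had 63 counts in the Pc4-OE-labelled library and 7 in the control-labelled one, 9.05-fold higher (4.15 to 23.4). Fcgr4, another activating receptor, had 52 counts in the Pc4-OE-labelled library and 7 in the control-labelled one, 7.47-fold higher (3.38 to 19.5). These 3 activating receptors reach the cell surface with FCER1G. Fcer1g had 99 counts in the Pc4-OE-labelled library and 18 in the control-labelled one, 5.53-fold higher (3.33 to 9.72).

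Fcgr2b, the inhibitory receptor of the family, had the lowest ratio of the 4 Fc gamma receptors. It had 172 counts in the Pc4-OE-labelled library and 52 in the control-labelled one, 3.33-fold higher (2.43 to 4.63), while the 3 activating receptors together had 316 counts (Pc4-OE) and 34 (control), 9.35-fold higher (6.55 to 13.7). The 2 intervals do not overlap. Fcgr2b thus supplied 35.2% (exact binomial 95% interval 31.0 to 39.7) of the 488 counts of the 4 Fc gamma receptors in the Pc4-OE-labelled library and 60.5% (49.3 to 70.8) of the 86 in the control-labelled one. Fcgr2b, Fcgr3 and Fcgr4 are related in sequence and lie together on chromosome 1, so reads that fit more than one of them may have been dropped or shared. An exon of Fcgr2b also overlaps the opposite-strand gene Gm38204. Fcgrt, the neonatal Fc receptor that recycles IgG and albumin in many cell types, had 268 counts in the Pc4-OE-labelled library and 99 in the control-labelled one, 2.72-fold higher (2.16 to 3.47).

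Tyrobp and Trem2, an adaptor and the receptor that depends on it, were both higher. Tyrobp had 124 counts in the Pc4-OE-labelled library and 12 in the control-labelled one, 10.4-fold higher (5.74 to 20.7). Trem2, a lipid-sensing receptor of macrophages and microglia, had 52 counts in the Pc4-OE-labelled library and 8 in the control-labelled one, 6.54-fold higher (3.08 to 15.9). Treml2, a Trem-like receptor, was the member with the lowest ratio: it had 71 counts in the Pc4-OE-labelled library and 124 in the control-labelled one, a ratio of 0.576 (0.424 to 0.777) whose interval excludes 1 but which does not reach 2-fold. Treml2 lies on chromosome 17 beside Trem2 (48299390 to 48312534 and 48346401 to 48352276, GRCm38). Trem1, Trem3, Treml1 and Treml4 had 4 counts or fewer each.

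**Figure D2:**
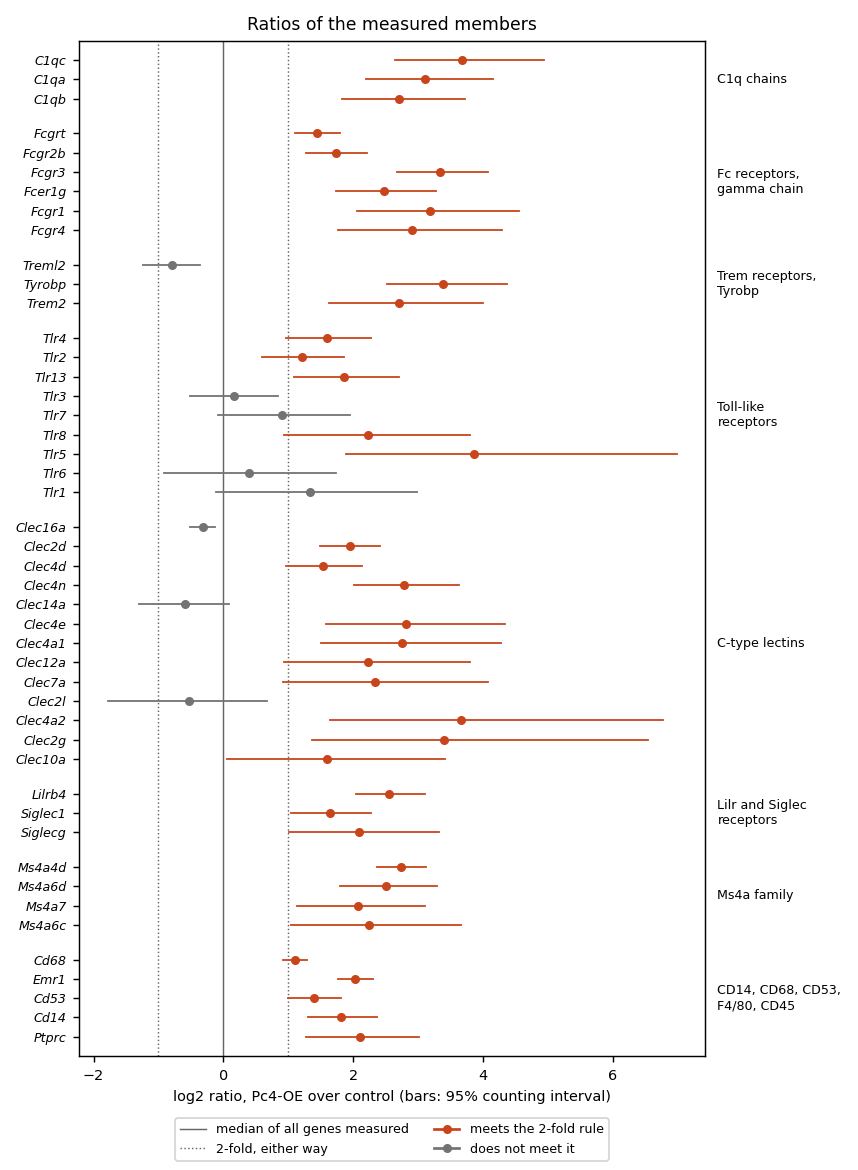
The log2 ratio of Pc4-OE over control for each of the 46 measured members, with bars for the 95% counting interval, a solid line at the median of all genes measured (-0.01) and dotted lines at 2-fold. The 38 coloured members meet the 2-fold rule and the 8 grey ones do not; bars are widest for genes with 2 control counts, such as Tlr5 and Clec4a2.

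All 9 measured Toll-like receptors had a ratio above 1. Of these, 5 met the rule (Tlr2, Tlr4, Tlr5, Tlr8 and Tlr13) and 4 did not (Tlr1, Tlr3, Tlr6 and Tlr7). Tlr4, the receptor for bacterial lipopolysaccharide, had 84 counts in the Pc4-OE-labelled library and 28 in the control-labelled one, 3.02-fold higher (1.95 to 4.81). Its co-receptor gene Cd14 had 140 counts in the Pc4-OE-labelled library and 40 in the control-labelled one, 3.52-fold higher (2.46 to 5.14). Tlr2, the lipopeptide receptor, had 74 counts in the Pc4-OE-labelled library and 32 in the control-labelled one, 2.33-fold higher (1.52 to 3.64). Its partners had fewer counts. Tlr1 had 15 counts in the Pc4-OE-labelled library and 6 in the control-labelled one, a ratio of 2.52 whose interval (0.922 to 7.91) holds 1, and Tlr6 had 13 counts (Pc4-OE) and 10 (control), a ratio of 1.31 (0.530 to 3.33). Tlr1 and Tlr6 are near neighbours on chromosome 5 and similar in sequence, and all 896 genes measured on that chromosome had a median log2 ratio of -0.30.

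Tlr3, the receptor for double-stranded RNA, which many cell types other than myeloid cells use, had nearly equal counts. It had 41 in the Pc4-OE-labelled library and 37 in the control-labelled one, a ratio of 1.11 (0.697 to 1.79). Tlr13, which detects bacterial ribosomal RNA in the mouse, had 65 counts in the Pc4-OE-labelled library and 18 in the control-labelled one, 3.63-fold higher (2.13 to 6.51). Tlr7, a receptor for single-stranded RNA, had 26 counts (Pc4-OE) and 14 (control), a ratio of 1.87 (0.941 to 3.87), and its chromosome X neighbour Tlr8 had 28 (Pc4-OE) and 6 (control), a ratio of 4.70 (1.91 to 13.9). Tlr5, the flagellin receptor, had 29 counts in the Pc4-OE-labelled library and 2 in the control-labelled one, a ratio of 14.6 that these counts place only between 3.69 and 126.2. Summed over rows, the receptors known from the cell surface (Tlr1, Tlr2, Tlr4, Tlr5 and Tlr6) had a ratio of 2.77 (2.13 to 3.64) and those known from endosomes (Tlr3, Tlr7, Tlr8, Tlr9 and Tlr13) one of 2.20 (1.66 to 2.93). These intervals overlap. Tlr11 and Tlr12 had no count in either library.

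Among 13 measured C-type lectin genes, 10 were at least 2-fold higher. The higher group included the fungal and mycobacterial sensors. Clec4n, which encodes dectin-2, had 109 counts in the Pc4-OE-labelled library and 16 in the control-labelled one, 6.85-fold higher (4.04 to 12.4). Clec4d, a partner of dectin-2 and mincle, had 101 counts in the Pc4-OE-labelled library and 35 in the control-labelled one, 2.90-fold higher (1.96 to 4.40). Clec2d, a ligand of natural killer cell receptors, had 195 counts in the Pc4-OE-labelled library and 51 in the control-labelled one, 3.85-fold higher (2.81 to 5.34). Clec4e, which encodes mincle, had 42 counts (Pc4-OE) and 6 (control), a ratio of 7.04. Clec7a, the beta-glucan receptor dectin-1, had 25 (Pc4-OE) and 5 (control), a ratio of 5.03, and Clec12a, an inhibitory receptor, had 28 (Pc4-OE) and 6 (control), a ratio of 4.70. Clec4a1, Clec4a2, Clec2g and Clec10a met the rule on 2 to 6 control counts each.

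The 3 lectin-named genes that did not meet the rule are ones known from other settings. Clec16a, an endolysosomal protein of autophagy present in most cell types, had 410 counts in the Pc4-OE-labelled library and 515 in the control-labelled one, a ratio of 0.801 (0.702 to 0.914). Clec14a, an endothelial surface protein, had 31 counts in the Pc4-OE-labelled library and 47 in the control-labelled one, a ratio of 0.664 (0.408 to 1.07). Clec2l, known from brain, had 11 counts (Pc4-OE) and 16 (control), a ratio of 0.692 (0.290 to 1.59). Because Clec16a supplied most of the control counts of the family, the sum over all 32 lectin rows had a ratio of only 1.49 (1.35 to 1.63), while the median log2 ratio of the 13 was 2.23. Of the 32 rows, 11 had no count in either library.

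Lilrb4, an inhibitory receptor of myeloid cells, had 210 counts in the Pc4-OE-labelled library and 36 in the control-labelled one, 5.87-fold higher (4.11 to 8.61), although its exons overlap Gm49339 on the same strand and Gm40645 on the other. Siglec1, the sialic acid receptor CD169 of tissue macrophages, had 96 counts in the Pc4-OE-labelled library and 31 in the control-labelled one, 3.12-fold higher (2.06 to 4.83). Siglecg, an inhibitory receptor best known from B cells, had 38 counts (Pc4-OE) and 9 (control), 4.25-fold higher (2.02 to 9.99). Siglech, a marker of plasmacytoid dendritic cells, was at 0 in both libraries.

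The 4 measured Ms4a genes, which encode four-pass membrane proteins, were all higher. Ms4a4d had 456 counts in the Pc4-OE-labelled library and 69 in the control-labelled one, 6.65-fold higher (5.15 to 8.69). Ms4a6d had 107 counts in the Pc4-OE-labelled library and 19 in the control-labelled one, 5.67-fold higher (3.46 to 9.78). Ms4a7, a macrophage gene, had 50 counts in the Pc4-OE-labelled library and 12 in the control-labelled one, 4.19-fold higher (2.20 to 8.65). Ms4a6c had 33 counts (Pc4-OE) and 7 (control), 4.74-fold higher (2.06 to 12.7). Members of the family are similar in sequence, and an exon of Ms4a6c overlaps BE692007 on the other strand. Ms4a1, which encodes the B cell antigen CD20, Ms4a2, the mast cell receptor chain, and Ms4a3, a granulocyte precursor gene, were at 0 in both libraries.

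The 5 widely shared markers of macrophages and leukocytes, Cd14 among them, were all at least 2-fold higher. Cd68, a lysosomal glycoprotein, had 730 counts in the Pc4-OE-labelled library and 343 in the control-labelled one, 2.14-fold higher (1.88 to 2.44). Emr1, which encodes the macrophage antigen F4/80, had 565 counts in the Pc4-OE-labelled library and 139 in the control-labelled one, 4.09-fold higher (3.39 to 4.96). The intervals of these 2 genes do not overlap. Cd53, a leukocyte tetraspanin, had 186 counts in the Pc4-OE-labelled library and 71 in the control-labelled one, 2.64-fold higher (1.99 to 3.52). Ptprc, which encodes the pan-leukocyte phosphatase CD45, had 64 counts in the Pc4-OE-labelled library and 15 in the control-labelled one, 4.29-fold higher (2.42 to 8.11).

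Levels per transcript length put the members in a partly different order in each library. In the library labelled Pc4-OE the highest levels per kilobase were those of Cd68 (57.3 CPM per kb), Ms4a4d (29.1), Tyrobp (20.1), Emr1 (16.9) and Clec2d (15.5). In the library labelled control they were those of Cd68 (26.8 CPM per kb), Clec16a (7.92), Fcgrt (5.37), Ms4a4d (4.38) and Emr1 (4.12). Tyrobp stood at 1.93 CPM per kb there. The longest annotated transcript need not be the one expressed, so these levels are approximate.

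Several members sit in gene clusters, and the genes beside them were compared as a local background. On chromosome 1 (170960558 to 171234349, GRCm38), the Fc receptor cluster held 4 measured members with a median log2 ratio of 2.69. The 16 other genes measured within it or within 150 kb of it, among them Sdhc of the respiratory chain, had a median of -0.10, and 0 of them met the rule. Over all 14213 genes measured, 11.8% were higher by the rule and 4.02% lower, which holds beside each count of neighbours here. On chromosome 6, the 5 measured members of the dectin-2 cluster had a median of 2.78. Of the 3 neighbours measured there, Foxj2 (0.11) and Necap1 (0.25) did not meet the rule, and C3ar1, the receptor of the complement fragment C3a, was 5.58-fold higher (4.31 to 7.30). On chromosome 19, the 4 Ms4a members had a median of 2.37 and the 7 neighbours a median of -0.08. Slc15a3, an endolysosomal peptide transporter, was the 1 neighbour that met the rule, with a log2 ratio of 2.44 (232 counts in the Pc4-OE-labelled library and 43 in the control-labelled one).

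**Figure D3:**
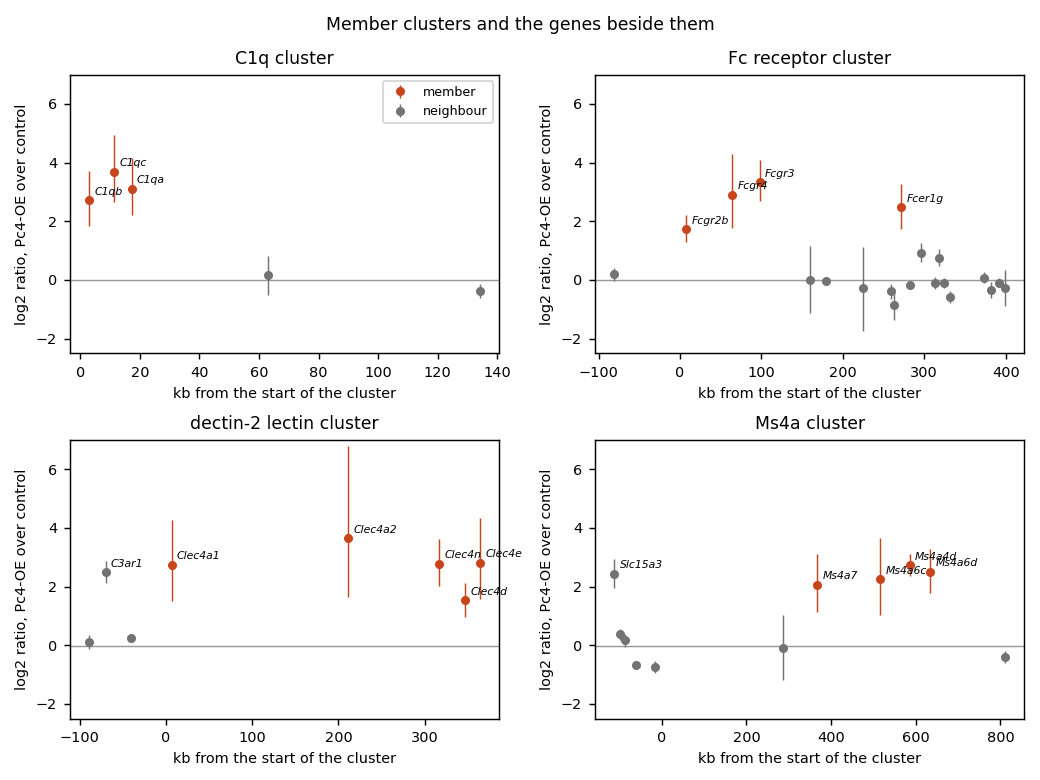
The log2 ratio of Pc4-OE over control against distance in kb from the start of each cluster, for members (coloured) and for other measured genes within 150 kb (grey), with 95% counting intervals and a line at the median of all genes. The members lie above the line in the 4 clusters, and C3ar1 and Slc15a3 are the neighbours that meet the 2-fold rule.

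Lists of partner genes were set beside the receptors. They were chosen with earlier results of these data known. Beside the count of each list, here and below, stands the share over all 14213 genes measured, 11.8% higher and 4.02% lower. Of 15 measured genes of ITAM signalling, 4 were higher, 0 lower and 11 neither, and the median log2 ratio was 0.30. Lcp2, an adaptor, was 3.69-fold higher (1.45 to 11.1) and Lat2, another adaptor, 3.44-fold (1.77 to 7.18). The kinase gene Syk had 639 counts in the Pc4-OE-labelled library and 522 in the control-labelled one, a ratio of 1.23 (1.10 to 1.39), and the phosphatase gene Ptpn6 had 234 (Pc4-OE) and 426 (control), a ratio of 0.553 (0.469 to 0.650). Of 21 Toll-like receptor adaptors and effectors, 4 were higher, 0 lower and 17 neither, with a median of 0.30. Ly96, the lipopolysaccharide-binding partner of TLR4, was 4.19-fold higher (1.68 to 12.5) on 25 counts (Pc4-OE) and 6 (control). Unc93b1, which carries the endosomal receptors, was 2.15-fold higher (1.74 to 2.68) and Tnfaip3, a feedback inhibitor, 2.52-fold (2.03 to 3.13). Myd88, the common adaptor, had 131 counts in the Pc4-OE-labelled library and 142 in the control-labelled one, a ratio of 0.928 (0.726 to 1.19).

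Of 15 measured complement genes outside C1q, 9 were higher, 0 lower and 6 neither, with a median of 1.06. C5ar1, the receptor of C5a, was 5.58-fold higher (2.91 to 11.8), Cd55, an inhibitor of complement on cell surfaces, 2.88-fold (2.42 to 3.43) and C2, a component of the classical pathway convertase, 2.46-fold (2.04 to 2.99). C1ra, a protease that binds C1q, was 2.06-fold higher (1.57 to 2.73), and its interval lies below those of the 3 C1q chains. Fibroblasts also make several complement proteins. Of 13 measured myeloid transcription factors and growth factor genes, 10 were higher, 0 lower and 3 neither, with a median of 1.78. Spi1, which encodes PU.1, had 37 counts in the Pc4-OE-labelled library and 16 in the control-labelled one, 2.33-fold higher (1.26 to 4.48). Csf1r, the macrophage growth factor receptor, had 107 counts in the Pc4-OE-labelled library and 22 in the control-labelled one, 4.89-fold higher (3.07 to 8.13). Csf1, its ligand, which fibroblasts secrete, was 3.76-fold higher (3.45 to 4.11).

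Of 23 measured macrophage genes outside the naming rule, 19 were higher, 0 lower and 4 neither, with a median of 2.13. Ctss, a lysosomal protease of antigen-presenting cells, had 497 counts in the Pc4-OE-labelled library and 58 in the control-labelled one, 8.62-fold higher (6.56 to 11.5). Lyz2, the macrophage lysozyme, was 5.04-fold higher (4.54 to 5.60). Laptm5, a lysosomal protein of blood cells, departed from these genes, with 1362 counts in the Pc4-OE-labelled library and 1141 in the control-labelled one, a ratio of 1.20 (1.11 to 1.30). Cx3cr1, a monocyte and microglia receptor, had 2 counts in each library.

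Genes of other cell types that such a culture could hold were mostly below the count minimum. Of 8 mast cell genes, 6 were at 0 in both libraries, among them Cpa3 and Cma1, and the 2 measured did not meet the rule. These were Kit, with 971 counts (Pc4-OE) and 946 (control), and Hdc, with 12 (Pc4-OE) and 19 (control). The globin genes Hbb-b1 and Hba-a1 were at 0 in both. Of 10 B cell genes, 4 were measured, of which Cr2 was higher on 20 counts (Pc4-OE) and 3 (control) and Cd79a and Cd79b were lower, at 10 and 16 counts in the Pc4-OE-labelled library and 29 and 39 in the control-labelled one. Of the 3 measured dendritic cell genes none met the rule (Zbtb46, Bst2 and H2-Ab1). The 11 dendritic cell genes summed to 3094 counts (Pc4-OE) and 1932 (control), a ratio of 1.61 (1.52 to 1.71). Most of these counts were those of Bst2, with 2973 (Pc4-OE) and 1831 (control). Of the 3 measured erythroid and megakaryocyte genes, Epor was lower, with 18 counts (Pc4-OE) and 41 (control), and 2 met neither side. These were Itga2b, with 80 (Pc4-OE) and 52 (control), a ratio of 1.55 (1.08 to 2.24), and Klf1, with 10 (Pc4-OE) and 13 (control). The 11 erythroid and megakaryocyte genes summed to 138 counts (Pc4-OE) and 117 (control), a ratio of 1.19 (0.921 to 1.53). Of the T cell receptor complex genes, Cd3e had 24 counts in the Pc4-OE-labelled library and 48 in the control-labelled one, a ratio of 0.503 (0.295 to 0.838), and Cd3d had 1 count (Pc4-OE) and 0 (control). The 14 T and natural killer cell genes in the table summed to 47.4 CPM in the Pc4-OE-labelled library and 71.2 CPM in the control-labelled one, mostly from Lck and Zap70. Of 13 granulocyte genes, 2 were measured. S100a8 met the rule on 29 counts (Pc4-OE) and 5 (control), and Prtn3, with 17 (Pc4-OE) and 14 (control), did not. S100a9, Ctsg and Cxcr2 were at 0 in both. The 13 granulocyte genes summed to 61 counts (Pc4-OE) and 37 (control), a ratio of 1.66 (1.08 to 2.57). The 8 measured endothelial genes had a median of -0.03, with Flt1 2.84-fold higher and Esam at 25 counts in the Pc4-OE-labelled library against 74 in the control-labelled one. Of the 24 fibroblast markers, 19 were higher and 0 lower (median 1.29), and the part of the feeder cells in the receptors' ratios was not tested.

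**Figure D4:**
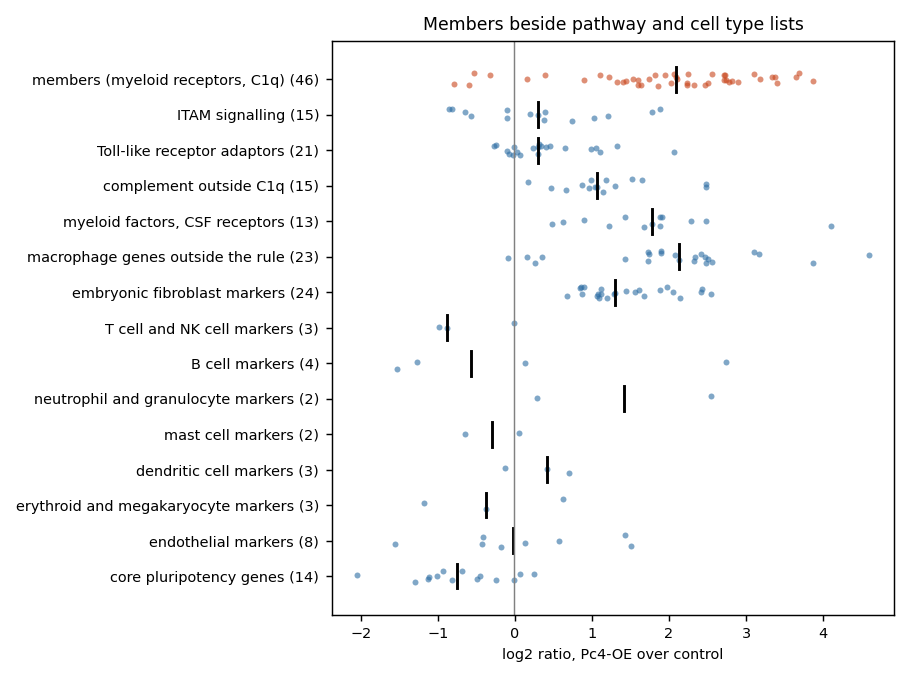
The log2 ratio of Pc4-OE over control for each measured gene of the receptors and C1q (top row, 46 genes) and of each partner or cell type list, with the number of measured genes in brackets, a black bar at each median and a grey line at the median of all genes. The medians of the receptors (2.09) and of the other macrophage genes (2.13) lie near each other, above those of the fibroblast markers (1.29) and of the ITAM and Toll-like receptor signalling lists (0.30 each).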

How the data were processed

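The authors deposited whole-number read counts per gene on 24061 rows, 1 column per library. STAR 2.4.1c, featureCounts and the mm10 build are named in the submitters' processing notes. Gene annotation, strandedness of counting and handling of multi-mapping reads are not stated in these sources, so values of similar genes (Fc gamma receptors, Ms4a, Clec2, Clec4 and Lilr genes, Tlr1 and Tlr6) and of genes with antisense partners are uncertain. Columns were matched to samples by title.

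From these counts, CPM was computed on effective library sizes with TMM factors of 1.015 (Pc4-OE) and 0.985 (control) from edgeR 4.0.16, without a pseudocount. Ratios and exact intervals used SciPy 1.17.1 and leave out all error but counting, and reads are not independent molecules. One count was worth 0.0966 CPM in the Pc4-OE-labelled library and 0.0960 CPM in the control-labelled one. Genes needed 20 counts summed, and no measured member was at 0 in either library. No p-value was computed with 1 library per group. The steps were tested on simulated data that held counting error alone, so that test does not cover variation between cultures. Entrez IDs matched RefSeq's GRCm38 gene table (mm10 copies that assembly) for 99.7% of rows. Lengths and exon overlaps came from GENCODE M21.

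Members and lists were chosen with earlier results of these data known. Members could be named from 20 counts, and up to 4 genes per list by the interval bound nearest to 1, with Sub1, Csf1r, Spi1, Lyz2, Myd88, Syk, Col1a1 and Pou5f1 fixed. Cluster neighbours, C1ra, Laptm5, Cx3cr1 and the markers given at or near 0 were named after their values were seen. Protein sequences were not used here, and a few genes of the lists are not reported here by name. Alternatives were library totals, DESeq2 1.42.0 size factors, a pseudocount of 0.5 CPM, count minimums of 1, 10, 50 and 100, and intervals widened for an assumed between-culture coefficient of variation of 0.4.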

Additional observations from a re-analysis of the deposited data

How the results depend on the processing

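The count of 38 higher members was 38 with library totals and with DESeq2 size factors, 37 with a pseudocount of 0.5 CPM, 39 with a minimum of 10 counts or of 1, 27 with 50, 20 with 100 (fewer genes are tested there) and 30 with intervals widened by a coefficient of variation of 0.4. The count of lower members was 0 in each of these. The members' median log2 ratio of 2.09 was 1.59 with no minimum beyond 1 count, a 0 being set to 3 counts, and between 1.67 and 2.14 otherwise. That floor turns the direction of rows with fewer than 3 counts in the other library. A row with 2 counts (Pc4-OE) and 0 (control) took a ratio of 0.671, and 1 with 0 (Pc4-OE) and 2 (control) took 1.51. The value of 1.59 thus depends in part on the floor. The summed ratio of 2.69 was 3.31 without Clec16a and 3.53 without Clec16a, Clec14a, Clec2l, Fcgrt and Tlr3, both chosen after seeing the data, and those 41 measured members had a median of 2.23. Over all genes, the counts of 1673 higher and 572 lower were 1095 and 366 with a minimum of 100, and 597 and 96 with the widened interval. The calls of the 31 members with 50 or more counts were the same under both scalings and the pseudocount. They were not all the same with the widened interval. Of these members, Cd68, Cd53, Fcgrt, Tlr2, Tlr4, Siglec1 and Clec4d then no longer met the rule, nor did Clec10a among those with fewer counts. Among the named list genes, Epor (-0.99) lost its call with the pseudocount and Lin28a (-0.97) with library totals, Nfkbia (1.02) and Cdh5 (1.47) gained one with library totals, and Cd3e gained one with DESeq2 size factors. No paired analysis was possible because each group has 1 library. Leaving out a library leaves no comparison. The depth, at 20 to 49 counts summed for 15 members, leaves their ratios wide.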
